A study of Mus musculus with 52 samples.

Results

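The comparison described here is that of tumors given both agents with tumors given the antibody alone, so that it measures what adding ADU-S100 did on top of anti-LTβR. It was chosen by the sample labels and holds 16 tumors of the 52 libraries in the series, 8 combination tumors and 8 anti-LTβR tumors, with all genes in the table. The tumors grew from KPC cells, a mouse pancreatic adenocarcinoma line, under the flank skin of syngeneic male C57BL/6NHsd mice with an intact immune system. The combination group received 2 µg of ADU-S100, a cGAMP analog that activates STING, injected once into the tumor, and 4 intraperitoneal doses of 100 µg of the agonistic antibody 4H8 to LTβR. The anti-LTβR group received the antibody only. The other groups were untreated tumors and tumors given ADU-S100 only, again with 8 tumors each. Tumors were taken on day 14 and sequenced singly, without pooling, as poly(A) RNA. A single tumor line at a site under the skin was used, and each replicate was a tumor of its own. How many mice carried the tumors of each group is not given in the sources used here.

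STING is a sensor protein that, once bound by cyclic dinucleotides, drives type I interferon and inflammatory genes. LTβR is a receptor of the tumor necrosis factor receptor family on stromal and endothelial cells that signals largely through noncanonical NF-kB, and it is known for organizing lymphoid stroma, high endothelial venules and the chemokines that call in lymphocytes. A pancreatic tumor of this kind also holds fibroblasts, which lay down collagen and proteoglycans, pericytes around vessels, blood and lymphatic endothelium, and many macrophages.

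Values are normalized counts, that is reads per gene divided by a size factor for each library. A difference is a log2 fold change of combination minus anti-LTβR on log2(normalized count + 1), so that 1 is close to a doubling, and it understates the change of low genes. A gene was called when its adjusted p from limma was below an FDR of 0.05 and its change was at least 2-fold. Recovered reads ran from 12803439 to 15591986 over the 16 tumors, above 14000000 in 12 of them, and no library stood as a copy of another. The second principal component held 16.8% of the variance and placed all 8 combination tumors beyond all 8 anti-LTβR tumors, while the first, with 38%, did not separate the groups.

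Of 16932 genes tested, 357 were called (2.11%). Relative to the antibody alone, 332 were increased (1.96%) and 25 decreased (0.148%). By FDR alone 4504 genes passed (26.6%), and 1917 genes were higher (11.3%) and 2587 lower (15.3%), so the lower genes were many but small in change. This split moved with the method, since 42.6% of the genes passing by FDR alone were higher here and 54.5% by edgeR with TMM factors on recovered reads. The median over all genes tested was -0.03. The groups did not overlap for 534 genes (3.15%), 245 with combination higher (1.45%) and 289 with combination lower (1.71%). The called higher genes included 298 protein-coding genes and 20 long noncoding RNAs.

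The response was graded across the combination tumors. The mean log2 level of the 332 called higher genes was 5.53 to 6.38 in anti-LTβR tumors and 6.55 to 7.91 in combination tumors. Combination tumor 2 was the lowest of its group for 233 of these genes and exceeded every anti-LTβR tumor for 104 of them. Combination tumor 5 was the highest for 217 and exceeded every anti-LTβR tumor for 321. Because these genes were chosen by the same contrast, these values describe the tumors and test nothing.

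The 10 increased genes with the smallest adjusted p among those whose groups did not overlap had varied roles. Epha3, an ephrin receptor found on mesenchymal cells, was at 109.8 to 148 (median 133) normalized counts in anti-LTβR tumors and 206 to 342 (median 287) in combination tumors. Its difference was 1.04 ± 0.10 (SE, adjusted p = 0.000125), the smallest adjusted p of all genes tested, and the groups stood clear of each other. Hoxb8 and Hoxb9, homeobox factors that mark position along the body axis, differed by 1.43 ± 0.18 (SE, adjusted p = 0.000618) and 1.37 ± 0.19 (SE, adjusted p = 0.000732). Mdk, the heparin-binding growth factor midkine, differed by 1.86 ± 0.26 (SE, adjusted p = 0.000732), and Cntfr, the receptor subunit for ciliary neurotrophic factor, by 1.31 ± 0.18 (SE, adjusted p = 0.000732). Rcn3, a calcium-binding protein of the endoplasmic reticulum that serves collagen production, differed by 1.32, Cdkn2b, the cell cycle inhibitor p15, by 1.22, Epb41l3, a membrane skeleton protein, by 1.29 and Fbxo17, an F-box protein, by 1.23. Prox1, the master factor of lymphatic endothelium, completed these 10.

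The 5 largest increases were in Tnn, Krt6b, Kera, Prss35 and Scart1. Tnn, the matrix glycoprotein tenascin N, was at 22.9 to 117 (median 72.3) in anti-LTβR tumors and 113 to 1163 (median 608) in combination tumors and differed by 3.14 ± 0.47 (SE, adjusted p = 0.000732). Kera, a proteoglycan known from cornea, was at 3.82 to 23.2 (median 14.2) and 30.2 to 148 (median 65.8), with a difference of 2.44 ± 0.35 (SE, adjusted p = 0.000732). Both genes were low with antibody alone, and only for Kera did the groups not overlap. Prss35, a serine protease-like protein, differed by 2.14 ± 0.43 (SE, adjusted p = 0.00254). Scart1, a scavenger receptor of gamma delta T cells, is described with those cells, and Krt6b, a keratin of skin, with the keratinocyte markers.

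**Figure D1:**
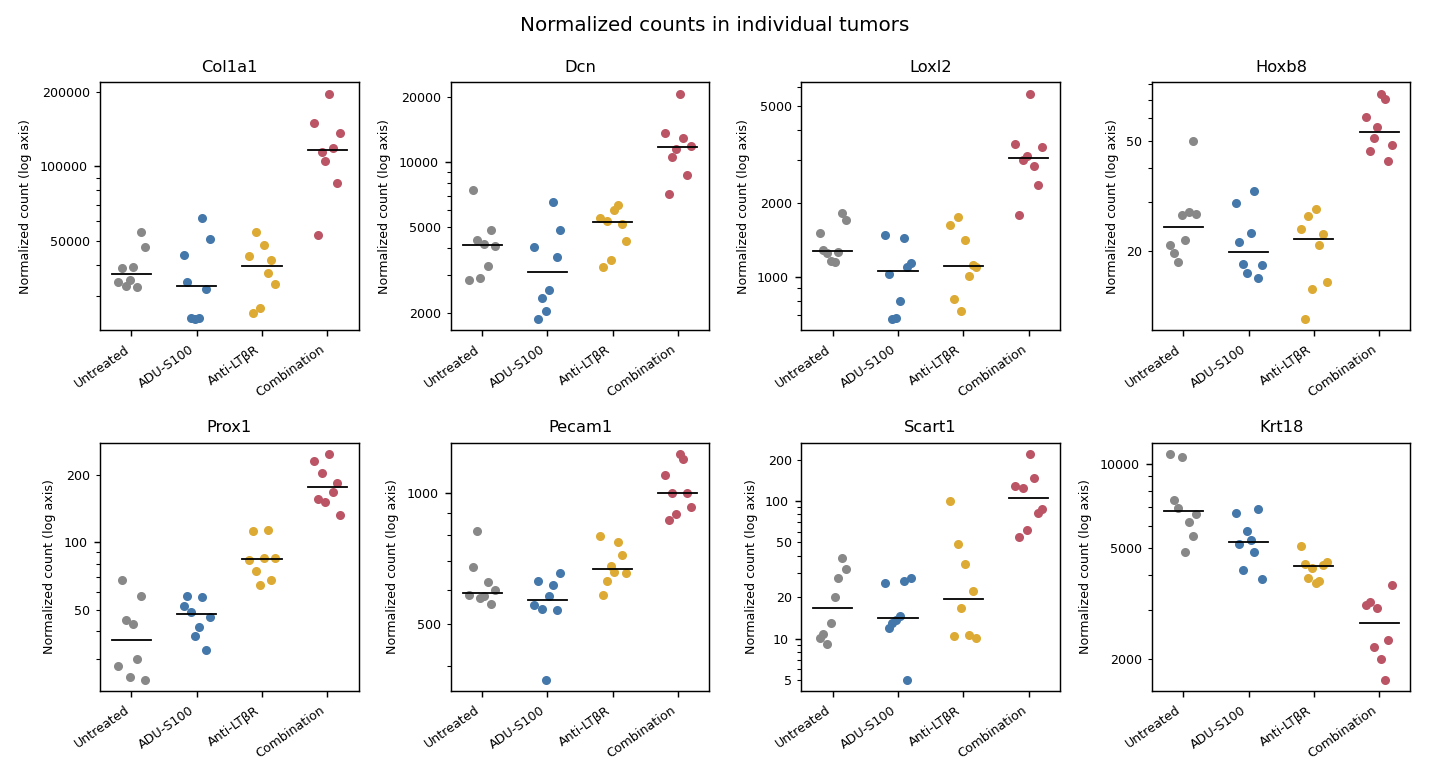
Normalized counts on a log axis for 8 genes in each of the 32 tumors, by group, with a bar at the group median. Col1a1, Dcn, Loxl2, Hoxb8, Prox1, Pecam1 and Scart1 were higher in combination than in anti-LTβR tumors and Krt18 was lower, with some overlap of the groups for Col1a1 and Scart1.

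Most collagen genes were higher. Of 18 genes in the collagen list, 14 were higher, 1 lower (Col18a1, a basement membrane collagen, -0.29) and 3 did not pass by FDR, with a median of 0.64 against -0.03 over all genes. Col1a1, a chain of type I collagen, the main fibre of connective tissue, was at 25532 to 54480.0 (median 39665) in anti-LTβR tumors and 52931 to 196432 (median 116749) in combination tumors. Combination tumors 1 and 3 to 8 were above every anti-LTβR tumor and tumor 2 was within their range. The group means differed 3.08-fold, and the difference was 1.58 ± 0.23 (SE, adjusted p = 0.000732). Its partner chain Col1a2 was at 16265 to 36159 (median 26902) and 37729.8 to 145015 (median 84956), with no overlap, and differed by 1.65 ± 0.24 (SE, adjusted p = 0.000732). Col3a1, the fibre collagen of young and healing tissue, differed by 1.42 ± 0.23 (SE, adjusted p = 0.000925), Col5a2, which helps set fibre width, by 1.16, and the fibre-associated Col14a1 and Col12a1 by 1.13 and 1.03. The basement membrane chains Col4a1 and Col4a2 differed by 0.10 (adjusted p = 0.11) and 0.21 (adjusted p = 0.00925). Over all 37 collagen genes tested, a list made after values had been seen, 24 were higher (11.3% over all genes) and 13 were called (1.96% over all genes). The called ones included the minor collagens Col6a6 (1.896), Col24a1 (1.73), Col23a1 (1.49), Col27a1 (1.41) and Col11a1 (1.15). The genes lie apart, with Col1a1 at chromosome 11, 94827050 to 94843868, plus strand, Col1a2 at chromosome 6, 4504814 to 4541544, plus strand and Col3a1 at chromosome 1, 45350698 to 45388866, plus strand (mm39, the build named in the processing notes). In bulk tumor RNA, more cells of a type and more RNA per cell cannot be told apart.

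Promoters are shown because the called collagens were higher together. Of the 13 called collagens, 9 have an entry in the RefSeq promoter set (GRCm38.p6), which spans 250 bases before to 50 bases after the start, and the 3 with the highest mean normalized count in combination tumors are printed. The sequences read 5′ to 3′ on the gene's strand, with matches to CCAAT or TATAAA, searched on both strands, in capitals, so that a match on the other strand appears as ATTGG.
Col1a2, chr6:4505368-4505667, plus strand: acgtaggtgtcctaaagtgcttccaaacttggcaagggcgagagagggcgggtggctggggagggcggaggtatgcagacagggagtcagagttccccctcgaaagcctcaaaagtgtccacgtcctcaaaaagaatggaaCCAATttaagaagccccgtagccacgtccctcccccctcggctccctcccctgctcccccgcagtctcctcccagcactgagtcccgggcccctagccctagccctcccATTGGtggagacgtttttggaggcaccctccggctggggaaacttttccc
Col3a1, chr1:45311288-45311587, plus strand: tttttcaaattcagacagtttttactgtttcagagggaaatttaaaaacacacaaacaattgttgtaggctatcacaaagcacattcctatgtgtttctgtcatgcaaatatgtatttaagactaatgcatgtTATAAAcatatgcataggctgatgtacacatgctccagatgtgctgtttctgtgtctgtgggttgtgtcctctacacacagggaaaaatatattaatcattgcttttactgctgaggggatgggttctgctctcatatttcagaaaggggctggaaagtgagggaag
Col27a1, chr4:63215162-63215461, plus strand: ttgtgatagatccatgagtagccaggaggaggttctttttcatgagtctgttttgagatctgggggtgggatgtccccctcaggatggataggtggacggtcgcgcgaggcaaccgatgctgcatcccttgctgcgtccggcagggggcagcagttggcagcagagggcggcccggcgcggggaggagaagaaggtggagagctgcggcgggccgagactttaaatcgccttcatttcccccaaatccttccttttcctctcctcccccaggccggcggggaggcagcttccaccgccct
The Col1a2 window held 2 CCAAT matches, 1 on each strand, the Col3a1 window held 1 TATAAA match, and the Col27a1 window held neither. CCAAT occurred in 37.4% and TATAAA in 13.6% of all 32851 promoters of this length. Among the 218 called higher genes with an entry, CCAAT occurred in 80 (36.7%) and TATAAA in 24 (11%), shares close to those of all promoters. A match describes the letters only.

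Most fibroblast markers were higher too. Of 12 markers, 10 were higher (11.3% over all genes) and none lower, 7 were called (1.96% over all genes) and the median was 1.03. Their summed level ran from 15813 to 28612 normalized counts in anti-LTβR tumors and from 30349.8 to 90532 in combination tumors, and all 8 combination tumors were above every anti-LTβR tumor. Pdgfra, the receptor for platelet-derived growth factor that marks fibroblasts, was at 450.0 to 903 (median 720.2) and 868 to 2011 (median 1354) and differed by 1.02 ± 0.17 (SE, adjusted p = 0.0011). Fap, a surface protease of activated fibroblasts, differed by 0.78, Thy1, a surface glycoprotein of fibroblasts, by 0.91 and Cd248, known as endosialin, by 0.81, all past the FDR but under 2-fold. Pi16, a marker of adventitial fibroblasts, and Has1, a hyaluronan synthase, did not pass, with values of 0.55 (adjusted p = 0.0791) and -0.43 (adjusted p = 0.222).

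Small leucine-rich proteoglycans, which bind collagen fibrils and set their spacing, were higher in 11 of 14 tested genes (11.3% over all genes). In this list, made after values had been seen, 9 were called (1.96% over all genes) and the median was 1.12. Dcn, decorin, was at 3262 to 6344 (median 5287) in anti-LTβR tumors and 7118 to 20829 (median 11723) in combination tumors, without overlap, and differed by 1.27 ± 0.19 (SE, adjusted p = 0.000732). Lum, lumican, was at 728 to 2215 (median 1512) and 1959 to 8433 (median 3965) and differed by 1.54 ± 0.28 (SE, adjusted p = 0.00154). Aspn, asporin, differed by 1.43, Omd, osteomodulin, by 1.36, Fmod, fibromodulin, by 1.16 and Bgn, biglycan, by 1.01. Prelp, a basement membrane member of the family, was the lowest at -0.19 and did not pass (adjusted p = 0.426).

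Genes of microfibrils and elastic fibres, which give tissue its recoil, were higher in 11 of 14 (11.3% over all genes), with a median of 0.68. This list too was made after values had been seen. Mfap4 and Mfap2, microfibril-associated proteins, differed by 1.87 ± 0.27 (SE, adjusted p = 0.000732) and 1.80 ± 0.26 (SE, adjusted p = 0.000732), and Fbn2, the fibrillin of growing tissue, by 1.46. The adult fibrillin Fbn1 differed by 0.28 and elastin, Eln, by 0.95. Each of these passed the FDR, and neither Fbn1 nor Eln reached a 2-fold change.

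In the matrix remodelling list, which holds enzymes that cut or cross-link matrix and their inhibitors, 9 of 17 genes were higher, 2 were lower and 6 did not pass. Loxl2, which cross-links collagen, was at 730.0 to 1763 (median 1111) in anti-LTβR tumors and 1801 to 5624 (median 3066) in combination tumors, with no overlap, and differed by 1.41 ± 0.21 (SE, adjusted p = 0.000738), while its relative Lox differed by 1.04. Mmp2, Mmp3 and Mmp9, metalloproteinases that cut matrix proteins, differed by 1.26, 1.65 and 1.47. Mmp9 is also made by neutrophils and stood in that list too. The metalloproteinase inhibitors Timp1 and Timp3 moved the other way, by -0.34 (adjusted p = 0.00582) and -0.45 (adjusted p = 0.0101). In the collagen maturation list, made after values had been seen, 20 of 31 were higher and 4 lower, where 11.3% of all genes were higher and 15.3% lower. The lower ones were Plod2, Plod3, P4ha1 and Loxl4, which hydroxylate or cross-link collagen, at -0.36, -0.11, -0.21 and -0.27. Among the higher ones, Sparc, a collagen-binding glycoprotein, differed by 1.15, Fkbp10, a collagen chaperone, by 1.01, and Ctsk and Mrc2, a protease and a receptor that take collagen up and degrade it, by 1.34 and 1.09.

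Matricellular proteins, which sit in matrix and signal to cells, were higher in 16 of 21 (11.3% over all genes) and lower in 2, with a median of 0.93. The list was also made after values had been seen. Postn, periostin, was at 6838 to 12575 (median 9566) and 12465 to 38628 (median 24607) and differed by 1.35 ± 0.20 (SE, adjusted p = 0.000732). Cthrc1, a secreted protein of scar fibroblasts, differed by 1.94 ± 0.30 (SE, adjusted p = 0.000738), Tnc, tenascin C, by 1.22 and Thbs2, a thrombospondin, by 1.09. Spp1, osteopontin, which tumor macrophages also make in quantity, differed by -0.57 (adjusted p = 0.018), and the summed level of this list did not separate the groups, at 148321 to 250604 and 144210.0 to 197397.

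**Figure D2:**
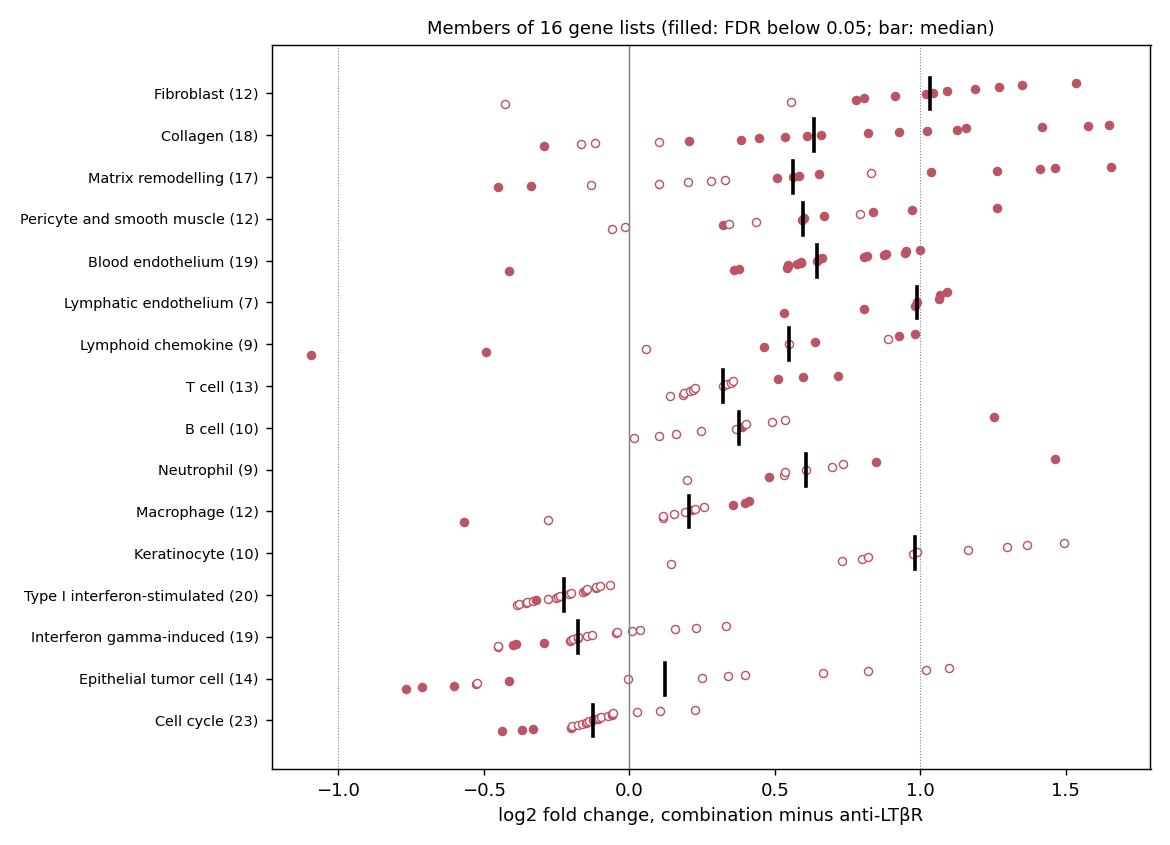
Log2 fold change, combination minus anti-LTβR, of every tested member of 16 gene lists, with filled points for an FDR below 0.05 and a bar at the list median. Fibroblast, collagen and endothelial lists lie mostly to the right of 0, with medians of 1.03, 0.64 and 0.64, and the type I interferon list lies wholly to the left, with a median of -0.22.

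Of 12 pericyte and smooth muscle markers, 7 were higher, none lower and 5 did not pass, with a median of 0.60. Tagln, an actin-binding protein of smooth muscle and myofibroblasts, differed by 1.26 ± 0.18 (SE, adjusted p = 0.000732) and Acta2, smooth muscle actin, by 0.97. Rgs5 and Cspg4, markers of pericytes, differed by 0.67 and 0.84, while Des, desmin, was at -0.06 (adjusted p = 0.963) and Notch3 at -0.01 (adjusted p = 0.928). In the TGF-beta list, 5 of 16 genes were higher and 5 lower. The ligand Tgfb2 and the receptors Tgfbr2 and Tgfbr3 were higher, by 0.54, 0.46 and 0.43, and the ligand Tgfb1, the latency proteins Ltbp1, Ltbp3 and Ltbp4 and the inhibitor Smad7 were lower, by -0.32, -0.50, -0.34, -0.45 and -0.39. Of 10 genes of mesenchymal transition, 1 was higher (Prrx1, a factor of limb and fibroblast mesenchyme, 0.68) and 2 were lower (Cdh2, N-cadherin, -0.58, and Fn1, fibronectin, -0.45), where 11.3% of all genes were higher and 15.3% lower.

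Blood endothelial genes rose almost without exception. Of 19 markers, 18 were higher (11.3% over all genes), with a median of 0.64. For 10 of them the groups did not overlap (1.45% over all genes with combination higher). Pecam1, the junction protein CD31, was at 582 to 795 (median 670.3) in anti-LTβR tumors and 867 to 1229 (median 1000.01) in combination tumors and differed by 0.58 ± 0.08 (SE, adjusted p = 0.000732). Cdh5, VE-cadherin, was at 393 to 552 (median 483) and 583 to 785 (median 677) and differed by 0.55 ± 0.08 (SE, adjusted p = 0.000732). All combination tumors were above all anti-LTβR tumors for both genes, although neither change reached 2-fold. Egfl7, a protein secreted by vessel cells, differed by 0.95, Sox18 and Erg, transcription factors of endothelium, by 0.95 and 0.88, and Kdr, the main VEGF receptor, by 0.82. Cldn5, the tight junction claudin of endothelium, was the member called, at 1.00 ± 0.19 (SE, adjusted p = 0.00206). Flt1, the decoy-like VEGF receptor, was lower, by -0.41 (adjusted p = 0.00558). The summed level of the list, which the most abundant members dominate, did not separate the groups, at 10572 to 13545 in anti-LTβR tumors and 11539.7 to 12871 in combination tumors. Among vessel signals, Angpt2, an angiopoietin of remodelling vessels, and Tie1, an angiopoietin coreceptor, differed by 0.91 and 0.88, whereas Vegfa, the main VEGF, differed by -0.27 (adjusted p = 0.0274) and Jag1, a Notch ligand, by -0.62 (adjusted p = 0.00426).

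All 7 lymphatic endothelial markers were higher (11.3% over all genes), with a median of 0.99, and 3 were called (1.96% over all genes). Prox1 was at 64.3 to 113 (median 84.1) in anti-LTβR tumors and 132 to 246 (median 175) in combination tumors and differed by 1.09 ± 0.15 (SE, adjusted p = 0.000732), with no overlap of the groups (chromosome 1, 189850232 to 189902911, minus strand, mm39). Lyve1, the hyaluronan receptor of lymphatic vessels that some macrophages share, was at 95.8 to 211 (median 107) and 129.8 to 397 (median 246) and differed by 1.07 ± 0.21 (SE, adjusted p = 0.00221). Mmrn1 and Flt4, a multimerin and the receptor for VEGF-C, differed by 1.06 and 0.99. Ccl21a, the chemokine that draws CCR7 cells into lymph vessels and nodes, was at 401 to 1632 (median 709.7) and 961 to 2107 (median 1468) and differed by 0.98 ± 0.25 (SE, adjusted p = 0.00882). Of the high endothelial venule markers tested, Ackr1, a chemokine-binding receptor of venules, and Cd34, a sialomucin carrier, were higher, by 0.83 and 0.83. Gcnt1, a glycosyltransferase, was lower by -0.25, and Chst2 and Fut7, enzymes that build the ligand for L-selectin, did not pass, at 0.07 (adjusted p = 0.638) and -0.00 (adjusted p = 0.993). Among adhesion molecules that leukocytes use on vessels, 6 of 12 were higher and 1 lower. Jam3 and Jam2, junctional adhesion molecules that bind each other, moved in opposite directions, by 1.06 ± 0.17 (SE, adjusted p = 0.000925) and -0.59 ± 0.11 (SE, adjusted p = 0.0015), and in neither did the groups overlap.

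**Figure D3:**
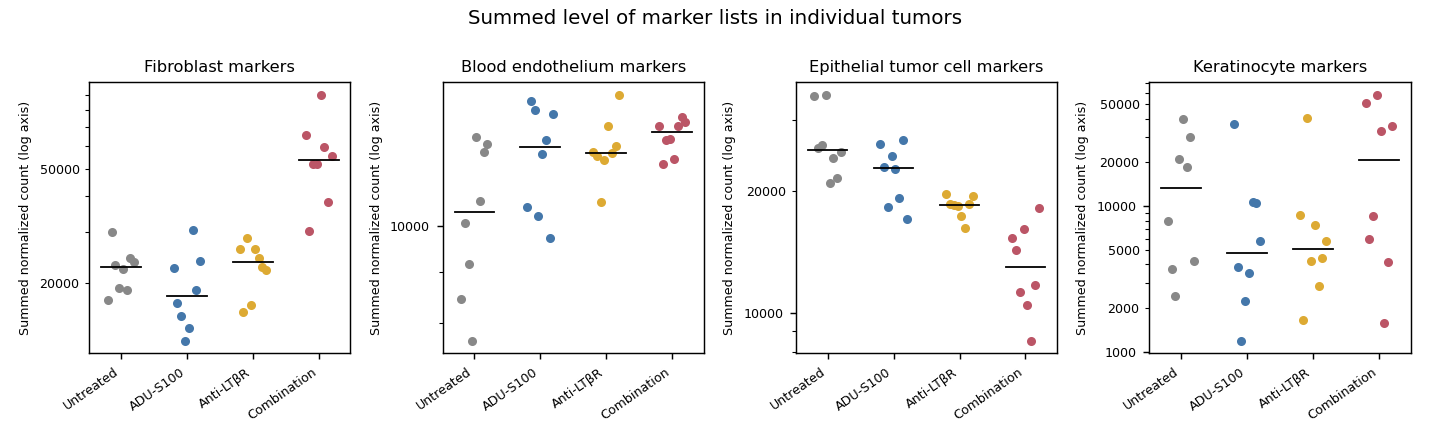
Summed normalized counts of 4 marker lists on a log axis in each of the 32 tumors, by group, with a bar at the group median. Fibroblast sums of all combination tumors were above those of all anti-LTβR tumors, blood endothelial sums overlapped, no combination tumor exceeded every anti-LTβR tumor in epithelial markers, and keratinocyte sums ran from 1574 to 58378 in combination tumors.

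Hox genes, the homeobox factors that record position along the body axis, were higher in 19 of 24 (11.3% over all genes). Of these, 10 were called (1.96% over all genes), and the list median was 0.94. The list was drawn up after values had been seen. Hoxb8 was at 11.5 to 28.3 (median 22.2) in anti-LTβR tumors and 42.4 to 73.6 (median 53.5) in combination tumors, and Hoxc6 was at 43.0 to 74.6 (median 64.0) and 75.2 to 195 (median 136). In both, all combination tumors were above all anti-LTβR tumors, at low levels. Members of the HoxA and HoxB clusters such as Hoxa9 (1.15) and Hoxb2 (1.07) and of the HoxC cluster such as Hoxc5 (1.21), Hoxc8 (1.12) and Hoxc10 (1.03) were called. Among the 5 that did not pass were Hoxa3 and Hoxa4, at -0.01 (adjusted p = 0.982) and -0.01 (adjusted p = 0.982). Neighbouring Hox genes overlap in places and may share reads.

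Imprinted genes, which are expressed from 1 parental copy, were higher in 12 of 23 (11.3% over all genes), a list also drawn up after values had been seen. Meg3, a long noncoding RNA of the Dlk1-Dio3 domain (chromosome 12, 109506879 to 109538165, plus strand, mm39), was at 446 to 1255 (median 779) and 943 to 4899.5 (median 2146) and differed by 1.52 ± 0.28 (SE, adjusted p = 0.00168). Its neighbours Rian and Mirg, noncoding RNAs, and Rtl1, a retrotransposon-derived gene, differed by 1.23, 1.48 and 1.20, and Dlk1 at the other end of the domain by -0.21 (adjusted p = 0.562). The growth regulators Grb10, Mest and Plagl1 differed by 1.16, 1.23 and 1.15, and Igf2 and H19 did not pass, at 0.05 (adjusted p = 0.871) and 0.68 (adjusted p = 0.117).

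In Hedgehog and Wnt signaling, 11 of 25 genes were higher (11.3% over all genes) and 1 lower (15.3% over all genes), again in a list made after values had been seen. The Hedgehog effectors Gli1 and Gli2 differed by 1.14 ± 0.24 (SE, adjusted p = 0.00372) and 1.29 ± 0.22 (SE, adjusted p = 0.00117), and the receptor Ptch1, itself a target, by -0.09 (adjusted p = 0.294). The secreted Wnt modulators Sfrp2 and Dkk3 and the Wnt5a receptor Ror2 were higher, by 1.56, 1.22 and 1.14, and Wnt5a itself was lower, by -0.36 (adjusted p = 0.0318). Fat4 and Dchs1, giant cadherins that bind each other, differed by 1.21 and 1.25, with no overlap of the groups in either. Cdkn2b and Cdkn2a, the neighbouring cell cycle inhibitor genes p15 and p16/p19, were at 15.3 to 33.6 (median 20.4) and 7.80 to 26.5 (median 15.4) in anti-LTβR tumors and 41.4 to 66.5 (median 54.6) and 20.7 to 62.6 (median 31.7) in combination tumors, with differences of 1.22 ± 0.17 (SE, adjusted p = 0.000732) and 1.15 ± 0.23 (SE, adjusted p = 0.00266). Mtap, the adjacent gene of methionine salvage, differed by 0.84 ± 0.10 (SE, adjusted p = 0.000554).

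Of 13 T cell markers, 3 were higher (11.3% over all genes) and none was called. Cd4, Cd2 and Cd5 were higher, by 0.72, 0.51 and 0.60, and the other 10 did not pass, with all 13 values above 0 and a median of 0.32. Cd8a, of killer T cells, was at 0.14 (adjusted p = 0.632). Among regulatory T cell genes, Il2ra, Foxp3, Tnfrsf18 and Ctla4 were higher, by 0.69, 0.51, 0.36 and 0.36, and Il10, a suppressive cytokine, was lower. Il18r1 and Cxcr3, receptors of TH1 cells, were higher, by 0.73 ± 0.11 (SE, adjusted p = 0.000794) and 0.89 ± 0.19 (SE, adjusted p = 0.00329). No NK cell marker was higher, and Klra4, a Ly49 receptor of a family with near-identical members, was lower, by -0.59 ± 0.09 (SE, adjusted p = 0.00082).

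In a gamma delta T cell list made after values had been seen, 6 of 11 genes were higher (11.3% over all genes), 5 were called (1.96% over all genes) and 5 did not pass. Scart1 was at 10.03 to 100.1 (median 19.4) in anti-LTβR tumors and 54.6 to 219 (median 106) in combination tumors and differed by 2.12 ± 0.44 (SE, adjusted p = 0.00305). Anti-LTβR tumor 1 lay within the combination range, and the other 7 were below every combination tumor. The receptor constant genes Trdc and Trgc1 were at 19.1 to 66.6 (median 21.8) and 3.86 to 31.4 (median 8.67) against 39.7 to 115 (median 63.9) and 19.5 to 56.0 (median 30.8), with differences of 1.25 ± 0.26 (SE, adjusted p = 0.003) and 1.48 ± 0.34 (SE, adjusted p = 0.00558). Trgc2 was at 0.03 (adjusted p = 0.959). Blk, a kinase of B cells and of some gamma delta T cells, was at 3.34 to 22.1 (median 17.5) and 28.6 to 46.9 (median 33.2), without overlap, and differed by 1.26 ± 0.29 (SE, adjusted p = 0.00567). In the tumors low in skin keratinocyte markers described further on, 3 of 12 genes of the list were higher, with a median of 0.72 against 0.67 over all 16 tumors.

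Of the 10 B cell genes tested, 2 were higher, Blk and Cd22 (11.3% over all genes). Cd22, a B cell inhibitory receptor, was higher by 0.39 (adjusted p = 0.0386), and the other 8 tested, among them Ms4a1, which encodes CD20, at 0.25 (adjusted p = 0.602), did not pass. The list median was 0.38. No immunoglobulin constant gene passed, their median was 0.36, and their summed level ran from 17437 to 180771 in anti-LTβR tumors and from 41114 to 234529 in combination tumors. Of the plasma cell list only Sdc1, syndecan 1, which epithelial cells also carry, passed, and it was lower, by -0.31 (adjusted p = 0.0177), with a list median of 0.38. In the tumors low in skin keratinocyte markers described further on, 1 of 10 B cell genes and 1 of 9 plasma cell genes were higher, no immunoglobulin constant gene passed, and the medians were 0.64, 0.92 and 1.16. Without combination tumors 7 and 8, described with the neutrophil markers, the 3 medians were 0.09, 0.30 and 0.44. Cxcl13, the chemokine that gathers B cells into follicles, was at 13.4 to 49.7 (median 28.8) in anti-LTβR tumors and 4.27 to 35.6 (median 13.9) in combination tumors, with a difference of -1.09 ± 0.36 (SE, adjusted p = 0.0351). This call was lost in 17 of 31 alternatives, with adjusted p up to 0.27. Ccl21a, Cxcl12, Cxcr4 and Ccr7, a chemokine set and its receptors that guide lymphocytes and dendritic cells, were higher, by 0.98, 0.93, 0.46 and 0.64, Ackr3, a scavenger of CXCL12, was lower, by -0.49, and Ccl19 was at 0.55 (adjusted p = 0.0532).

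A set of 23 of the genes that the study discussed for these libraries, there against untreated tumors, was compared here with the antibody alone. Of these, 21 were tested, 11 were higher and 1 was lower by FDR, and none of the 21 was called. Because the study discussed them from the same libraries, this count is not independent evidence. Tnf, the inflammatory cytokine, was at 69.8 to 147 (median 101) in anti-LTβR tumors and 106 to 349.9 (median 195) in combination tumors and differed by 0.89 ± 0.23 (SE, adjusted p = 0.00985). The LTβR ligand genes Ltb, Lta and Tnfsf14, which encodes LIGHT, differed by 0.62 ± 0.14 (SE, adjusted p = 0.00462), 0.91 ± 0.31 (SE, adjusted p = 0.0416) and 0.51 ± 0.13 (SE, adjusted p = 0.00822), and Lta no longer passed in 15 of 31 alternatives (adjusted p up to 0.122). Tlr7, an RNA sensor, differed by 0.31, Fasl, a death ligand of killer cells, by 0.62, Stat4, a factor of TH1 cells, by 0.49, Il21r, the receptor for IL-21, by 0.31 (lost in 9 of 31 alternatives, adjusted p up to 0.258), Cd40, a costimulatory receptor, by 0.52 and Cd27, a memory lymphocyte receptor, by 0.56. Il10 was lower, by -0.71 ± 0.21 (SE, adjusted p = 0.0195). Fasl was lost in 3 of 31 alternatives (adjusted p up to 0.177) and Il10 in 2 of 31 (adjusted p up to 0.146). Ccl21a, which is described above and is also among the 11 higher genes, Tnf, Ltb, Tnfsf14, Tlr7, Stat4, Cd40 and Cd27 were each lost in 1, among the libraries above 14000000 reads, with adjusted p up to 0.221. Those that did not pass were Gzmb, granzyme B (0.27), Tbx21, the TH1 factor T-bet (0.39), Il12rb2, an IL-12 receptor chain (0.57), Ifng, interferon gamma (0.28), Cxcr5, the follicle homing receptor (0.06), Mzb1, a plasma cell chaperone (0.38), Tnfsf13b, which encodes BAFF (0.24), Pdcd1, which encodes PD-1 (0.10), and Cd274, which encodes PD-L1 (0.13). Of those that did not pass, Il12rb2 passed in 7 of 31 alternatives, Gzmb, Tbx21 and Tnfsf13b each in 2 and Cd274 in 1. Cd40lg and Il21 were too low for the filter and were compared by a two-sided exact permutation test over 12870 splits. Cd40lg, the T cell ligand of CD40, averaged 3.68 ± 2.35 (SD, n = 8) with antibody and 7.44 ± 2.78 (SD, n = 8) with both agents (exact p = 0.0124, adjusted over the pair of tests 0.0248). Il21, a helper T cell cytokine, averaged 4.43 ± 2.33 and 5.33 ± 2.83 (SD, n = 8 each, exact p = 0.49).

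Of 12 macrophage markers, Cd68, Trem2, Mertk and Mrc1 were higher, by 0.40, 0.36, 0.41 and 0.22, Spp1 was lower, and the complement genes C1qa, C1qb and C1qc did not pass, at 0.12, 0.19 and 0.12. Of 9 neutrophil markers, Mmp9, Csf3r and Mmp8 were higher, by 1.47, 0.48 and 0.85, and S100a8 and S100a9, the calprotectin genes, did not pass, at 0.73 (adjusted p = 0.18) and 0.70 (adjusted p = 0.203), with a list median of 0.61. The summed neutrophil level was at most 8947 in anti-LTβR tumors, and 4 combination tumors were above this. Combination tumors 1 and 5 were at 11046.8 and 13380.1, and combination tumors 7 and 8 at 22991.5 and 19808.5. Only combination tumors 7 and 8 also stood above every anti-LTβR tumor in summed red cell markers, at 119376 and 89553 against at most 42869, and in eosinophil markers, at 905 and 775 against at most 344. Without these 2 tumors, a choice made after seeing the data, the neutrophil median was 0.21, Mmp9 and Csf3r differed by 1.45 and 0.43, past the FDR, and Mmp8 differed by 0.50 (adjusted p = 0.126). Early complement genes made by fibroblasts and macrophages, namely C1ra, C1s1, C2 and the inhibitor Serping1, were higher, by 0.51, 0.66, 0.92 and 0.63. Of 12 inflammatory chemokines 2 were higher and of 14 inflammatory cytokines 3, with none lower in either list, where 11.3% of all genes were higher. Among the higher ones, Ccl11, the eosinophil chemokine eotaxin, and Il33, an alarmin of stroma, differed by 0.75 ± 0.18 (SE, adjusted p = 0.00777) and 0.63 ± 0.16 (SE, adjusted p = 0.0088).

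Of 20 type I interferon-stimulated genes, none was higher, 1 was lower (Xaf1, -0.32, adjusted p = 0.0159) and 19 did not pass, where 11.3% of all genes were higher and 15.3% lower. All 20 values were below 0, with a median of -0.22. Xaf1 no longer passed in 3 of 31 alternatives (adjusted p up to 0.142), and none of the 20 passed in the tumors low in skin keratinocyte markers described further on or without combination tumors 7 and 8, with medians of -0.24 and -0.17. Isg15, a ubiquitin-like protein, was at 984 to 1442 (median 1186) in anti-LTβR tumors and 684 to 1347 (median 1041) in combination tumors, with a difference of -0.24 ± 0.11 (SE, adjusted p = 0.132). Of 19 genes induced by interferon gamma, 4 were lower, the GTPases Tgtp1, Tgtp2, Gbp7 and Irgm2, by -0.45, -0.39, -0.40 and -0.29, and none higher, with a median of -0.18. Tgtp1 and Tgtp2 are near-identical, so the reads between them are uncertain. No class I or class II presentation gene passed over all 16 tumors, with medians of -0.07 and 0.13, but in the tumors low in keratinocyte markers 5 of 10 class II genes were higher, with a median of 0.37. In the same tumors the median of the interferon gamma list was 0.05, with 1 gene higher and 2 lower, and that of the class I list was 0.04. Without combination tumors 7 and 8, 1 of 10 class II genes was higher, and of the interferon gamma list 2 were higher and 4 lower, with a median of -0.08. In the STING pathway itself, 1 of 10 genes was higher, 1 was lower and 8 did not pass. Sting1 was at 0.07 (adjusted p = 0.453), Ikbke, a kinase, was higher by 0.31 and Ifi204, a DNA sensor, was lower by -0.26. In noncanonical NF-kB signaling, 4 of 12 genes were higher, none lower and 8 did not pass. The higher ones were the ligand genes Lta, Ltb and Tnfsf14, given above, and Birc3, an inhibitor of apoptosis and a target, at 0.44, and Nfkb2, Relb and Ltbr did not pass, at -0.05, 0.02 and 0.01.

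Of 14 epithelial markers, which mark the tumor cells, none was higher (11.3% over all genes) and 5 were lower (15.3% over all genes). The lower ones included Krt18, Krt8 and Krt19, keratins of simple epithelium. Krt18 was at 3759.6 to 5087 (median 4296) in anti-LTβR tumors and 1692 to 3683 (median 2702) in combination tumors, without overlap, and differed by -0.71 ± 0.14 (SE, adjusted p = 0.00199). Krt8, its partner, differed by -0.53 ± 0.11 (SE, adjusted p = 0.00296) and Krt19 by -0.41 ± 0.14 (SE, adjusted p = 0.0379), while Lad1, a basement membrane anchor protein, and Chmp4c, a membrane remodelling protein, differed by -0.60 and -0.77. The other 9 epithelial markers, the keratin Krt7 among them, did not pass. Epcam was at 0.82 (adjusted p = 0.0596) and Cdh1, E-cadherin, at 0.67 (adjusted p = 0.25). Of the 14 values 7 were above 0, and the list median was 0.12. In the tumors low in skin keratinocyte markers described next, it was -0.29, with 6 of 14 lower and none higher, and without combination tumors 7 and 8 it was -0.11, also with 6 of 14 lower. Of 23 cell cycle genes 3 were lower (15.3% over all genes), Ccnd1, Myc and Bub1, which drive or check division, by -0.37, -0.44 and -0.33.

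Skin keratinocyte markers varied widely between tumors of both groups. None of 10 passed, the median was 0.98, and their summed level ran from 1659 to 40434 in anti-LTβR tumors and from 1574 to 58378 in combination tumors, with only combination tumors 1 and 4 above every anti-LTβR tumor. Krt6b was at 89.2 to 347 (median 193) and 111 to 11649 (median 3594) and differed by 3.10 ± 0.97 (SE, adjusted p = 0.0276). It no longer passed in 7 of 31 alternatives, and its difference ran from 0.59 to 4.67 over them. When only the 4 combination and 7 anti-LTβR tumors with a sum under 10000 were compared, a limit chosen after seeing the data, Krt6b differed by 0.59 (adjusted p = 0.388). In those tumors 228 genes were called higher and 46 lower, 9 of 12 fibroblast markers were higher with a median of 0.84, 12 of 18 collagens with a median of 0.54, 15 of 19 blood endothelial markers with a median of 0.64, 11 of 25 Hox genes with a median of 0.80 and 7 of 13 T cell markers with a median of 0.51. Of the 354 genes called over all tumors and tested there, 179 were called again and all 354 kept their sign. Of 65 lists, 9 had a median of the other sign in those tumors. Further lists whose counts or medians moved were complement, with 10 of 14 higher, macrophage, with 7 of 12, TH1, with 5 of 8 and a median of 0.63, regulatory T cell, with 2 of 8, dendritic cell, with 0 of 11, VEGF, angiopoietin and Notch, with 4 of 24, matrix remodelling, with 8 of 17 and a median of 0.32, and Fat and Dachsous cadherins, with 2 of 7 and a median of 0.33. Fewer tumors also lower the number of calls. Without combination tumors 7 and 8, 5 of 65 lists had a median of the other sign, those of follicular helper T cells (-0.14), epithelium, fat, skeletal muscle and red cells. There the cytotoxic list had 3 of 11 higher with a median of 0.41, the monocyte and mast cell medians were 0.14 and 0.14, 8 of 18 glycolysis and hypoxia genes were lower, and 4 of 86 ribosomal protein genes were lower and 4 of 86 higher.

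The genes called lower were few. Dnajc22, a membrane chaperone partner, was at 20.05 to 50.7 (median 29.0) in anti-LTβR tumors and 4.27 to 18.4 (median 10.5) in combination tumors, with no overlap, and differed by -1.57 ± 0.29 (SE, adjusted p = 0.00167). Platr16, a noncoding RNA, was at 13.8 to 55.2 (median 33.3) and 1.02 to 26.0 (median 11.4) and differed by -1.91 ± 0.49 (SE, adjusted p = 0.00986). Syt8, a synaptotagmin, was at 182 to 682 (median 304) and 38.1 to 279 (median 101) and differed by -1.51 ± 0.35 (SE, adjusted p = 0.00535). The values of Syt8 overlapped between groups, and 1 anti-LTβR tumor stood well above the rest. Tcp11x2, Soga3, Wdr72, Lemd1, Usp17la, Gpr141b and Thsd4 completed the genes with the smallest adjusted p, at -1.498, -1.46, -1.08, -1.21, -1.05, -1.02 and -1.01, of which only Usp17la and Gpr141b had groups that did not overlap.

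In the clock list 4 of 19 genes were higher, 3 were lower and 12 did not pass, where 11.3% of all genes were higher and 15.3% lower. Arntl and Clock, the activating pair, were lower, by -0.55 and -0.32, and their output genes Hlf, Dbp and Tef were higher, by 0.86, 0.46 and 0.28. The time of day of collection is not given in the sources used here. In axon guidance 5 of 19 genes were higher and 10 lower, with the receptor Robo1 and its ligand Slit3 higher, by 0.91 and 0.96, and the related ligand Slit2 lower, by -0.56. Fabp5, a fatty acid binding protein of macrophages and skin, was higher by 1.37. Of 18 glycolysis and hypoxia genes 4 were lower and none higher, with a median of -0.16. Of 86 ribosomal protein genes 2 were higher and 12 lower, and of 84 oxidative phosphorylation genes 2 were higher, where 11.3% of all genes were higher and 15.3% lower. In some other lists the member with the smallest p changed less than 2-fold. Plac8, a monocyte protein, differed by 0.34, Kit, the mast cell growth factor receptor, by 0.37, Mbp, a myelin protein of Schwann cells, by 0.52, Fcgrt, the neonatal Fc receptor, by 0.28 and Nt5e, the ectoenzyme CD73, by -0.54, each past the FDR. The mast cell list had a median of 0.27 over all tumors and of -0.31 in the tumors low in keratinocyte markers, where 2 of its 8 genes were lower and none higher. Il1rl1, the IL-33 receptor in the TH2 list, differed by 0.96 ± 0.18 (SE, adjusted p = 0.00191). Icos, a costimulator of follicular helper T cells, was at 0.40 (adjusted p = 0.0529) and did not pass, though it passed in 10 of 31 alternatives (adjusted p down to 0.0266). No adipocyte, skeletal muscle or red cell marker passed, with medians of 0.06, -0.14 and 0.47 over all 16 tumors and of -0.81, 1.11 and 0.61 in the tumors low in keratinocyte markers. Without combination tumors 7 and 8 they were -0.19, 0.03 and -0.06. The adipocyte and skeletal muscle medians turned in sign in both, and the red cell median in the second.

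The same step without the antibody was ADU-S100 alone against untreated tumors, which shares no tumor with the comparison above. No gene of 16613 was called there by limma (0%), 1 was called by edgeR with TMM factors on recovered reads, and 2408 had an unadjusted p below 0.05. Of the 332 genes called higher on top of the antibody, 282 were tested there. These 282 had a median of -0.24 with ADU-S100 alone, and 74 of them were above 0 (26.2%), against 8093 of 16427 over all genes (49.3%). Col1a1 was at 32537 to 54578 (median 36846) in untreated tumors and 24246 to 62152 (median 33045) in ADU-S100 tumors, a difference of -0.15. Dcn was at 2844 to 7445 (median 4144) and 1882 to 6585 (median 3093), a difference of -0.35. For both genes the ranges of these groups overlapped. Across 16427 genes the paired differences had a Pearson r of -0.26, a description over genes, which are not independent replicates.

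The difference between the steps was tested as an interaction over all 32 tumors. Of 17649 genes, 3240 passed at an FDR of 0.05 (18.4%), 1293 with a more positive step on top of the antibody (7.33%) and 1947 with a more negative one (11%). The share of positive ones was 39.9% here and 49.3% by edgeR with TMM factors. Of the 332 called higher genes, 250 passed in the positive direction, and of the 25 called lower, 16 passed in the negative direction, counts that share their combination and anti-LTβR tumors with the calls. The interaction was 1.72 for Col1a1, 1.87 for Loxl2, 2.63 for Mmp3, 1.67 for Hoxb8 and 4.45 for Tnn, each past the FDR. For Kera, whose change on top of the antibody was among the 5 largest, the interaction of 1.59 did not pass.

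**Figure D4:**
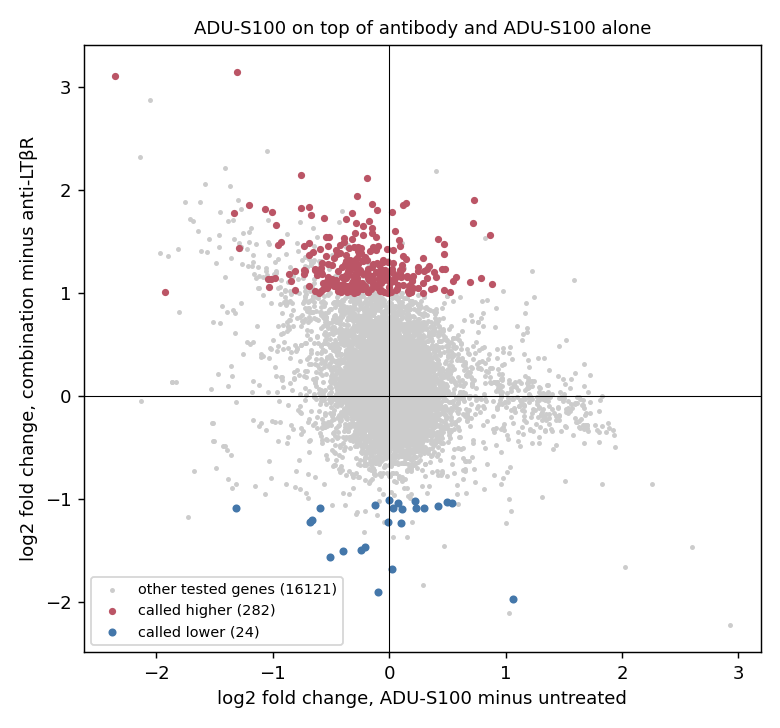
Log2 fold change of each of 16427 genes with ADU-S100 alone, against untreated tumors, on the horizontal axis and on top of the antibody on the vertical axis. The 282 called higher genes (red) lie mostly left of 0 on the horizontal axis, with 74 to its right, and the called lower genes are blue.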

How the data were processed

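Poly(A) RNA of single tumors was sequenced from stranded libraries. The values the authors deposited for the 32 tumors are a signal, reads per gene divided by a size factor per library. The processing notes name cutadapt 1.9, HISAT2, StringTie, STAR, Partek, DESeq2 and edgeR with build mm39, and which tool made which table was not settled. A second deposited table of 52 libraries held a signal whose steps gave whole reads (100% of values within 0.01), which were used for depth and for count-based alternatives. In it, 20 libraries of another experiment, 15 with contradictory labels, were not used here. Deposited gene set enrichment scores of the authors were not used.

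Groups followed the sample labels. Genes were filtered by filterByExpr (count minimum 10) and tested by limma 3.58.1 (trend, R 4.3.3) on log2(value + 1) with only the 16 tumors compared and Benjamini-Hochberg adjustment over all genes tested. The interaction used all 32 tumors. Alternatives were edgeR 4.0.16 and DESeq2 1.42.0 on recovered reads, other scalings, pseudocounts and filters, all groups fitted jointly, a replicate block, deeper libraries only, and leaving out each tumor. The test was checked on simulated data. Members and lists were chosen with earlier results of these data known, and 11 lists (all collagens, Hox, proteoglycans, microfibrils, collagen maturation, matricellular, imprinted, gamma delta T cell, Hedgehog and Wnt, Cdkn2a and Mtap, Fat and Dachsous) after values were seen. Named were 10 increased and 10 decreased genes ranked by adjusted p, first those whose groups did not overlap, the 5 with the largest change, the called or best member of each list and 23 genes the study names. Other list members were added after their values were seen. The methods' figure legend gives both a single experiment and 2 combined experiments, and no batch label was given.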

Additional observations from a re-analysis of the deposited data

Results flagged for a closer look

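Among 142 groups of 8 tumors examined for the named genes, 8 held a tumor set apart from the rest of its group by Dixon's rule, about what chance alone gives (1 in 20). Anti-LTβR tumor 3 was at 682 normalized counts of Syt8, with the nearest tumor at 397. Anti-LTβR tumor 1 was at 100.1 normalized counts of Scart1, with the nearest tumor at 48.8. Anti-LTβR tumor 5 was at 20.7 normalized counts of Fasl, with the nearest tumor at 36.8. Combination tumor 4 was at 25.8 normalized counts of Il10, with the nearest tumor at 20.1. Combination tumor 4 was at 56.1 normalized counts of Stat4, with the nearest tumor at 82.3. Combination tumor 5 was at 5624 normalized counts of Loxl2, with the nearest tumor at 3489. Anti-LTβR tumor 6 was at 211 normalized counts of Lyve1, with the nearest tumor at 135. Anti-LTβR tumor 6 was at 328 normalized counts of Mmrn1, with the nearest tumor at 215. 

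The interaction, that is the step from anti-LTβR to combination minus the step from untreated to ADU-S100, passed the FDR of 0.05 in limma for 43 of 71 named genes examined, a set that leaves out most list members. Over all genes 3240 of 17649 passed (18.4%). Many of the named genes were chosen by the step from anti-LTβR to combination, which is part of the interaction, so the count of 43 tests nothing. The more positive step on top of the antibody was 0.68 for Epha3, 1.21 for Fbxo17, 1.34 for Epb41l3, 1.67 for Hoxb8, 0.80 for Prox1, 1.54 for Rcn3 and 1.68 for Cntfr. Further positive values were 1.55 for Cdkn2b, 1.82 for Hoxb9, 2.01 for Mdk, 4.45 for Tnn, 5.46 for Krt6b, 2.89 for Prss35 and 2.31 for Scart1. It was also positive at 1.00 for Tnf, 0.80 for Tnfsf14, 0.58 for Cd40, 1.61 for Pdgfra, 1.62 for Dcn, 1.92 for Lum and 1.25 for Dpt. Positive values of the interaction were 1.56 for Postn, 1.37 for Mfap5, 1.72 for Col1a1, 1.87 for Col1a2, 1.53 for Col3a1, 1.56 for Col5a2 and 1.45 for Col12a1. Next came 1.63 for Mmp2, 2.63 for Mmp3, 1.89 for Mmp9, 1.37 for Lox, 1.87 for Loxl2, 1.30 for Cldn5 and 1.44 for Lyve1. The step was more negative on top of the antibody by -0.93 for Usp17la, -1.25 for Gpr141b, -1.01 for Thsd4, -1.26 for Tcp11x2, -1.31 for Wdr72, -1.26 for Soga3, -1.81 for Platr16 and -0.89 for Il10. Why the steps differed was not tested.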

How the results depend on the processing

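The counts of called genes kept within 1.5 times of 357 under the count-based tests (438 with edgeR and TMM, 437 with edgeR and RLE, 486 with DESeq2) and under most settings. Genes called lower numbered 8 with a pseudocount of 5 and 51 with no filter. In libraries above 14000000 reads (6 tumors in each group) 171 genes were called, 163 higher and 8 lower, with 30 named genes and 52 list members called, and fewer tumors alone lower such counts. By FDR alone 4504 genes passed, 1917 higher and 2587 lower, against 2087 and 1742 with edgeR and TMM, 2304 and 2069 with DESeq2, 2060 and 2143 with TMM on the deposited values and 1925 and 2031 with library totals. Leaving out each tumor gave 265 to 481 called genes, 244 to 444 higher and 21 to 37 lower, 38 to 55 named genes and 67 to 111 list members, lowest without combination tumor 5 and highest without combination tumor 2. Of 3 alternatives chosen after seeing the data, leaving out combination tumors 1 and 4, run first, gave 291 genes higher and 36 lower with 282 of the 357 called again, and keeping tumors with keratinocyte sums under 10000 gave 228 and 46, while leaving out combination tumors 7 and 8 gave 370 and 48. Atp2a1, a muscle calcium pump that never passed, turned to 0.17, 0.18 and 0.18 with edgeR TMM, edgeR RLE and DESeq2, 0.02 and 0.10 without combination tumor 1 or 8, and 0.97 in tumors low in keratinocyte markers, and ran from -0.80 upward over single left-out tumors. Cxcr5, which also never passed, turned to -0.15 without anti-LTβR tumor 8, -0.02, -0.02 and -0.07 without combination tumor 5, 7 or 8 (up to 0.31 without combination tumor 6), -0.19 without combination tumors 7 and 8, and -0.31 in tumors low in keratinocyte markers. The cause was not tested. Of 113 named genes compared over the alternatives, 34 no longer passed the FDR in at least 1, of which 21 in 1 only (17 in libraries above 14000000 reads, 4 in tumors low in keratinocyte markers). ADU-S100 alone gave 1 called gene with edgeR and TMM and 1 with the replicate block. The interaction with a size of at least 1 gave 540 genes, 478 positive and 62 negative.

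Replicate numbers are shared by different mice. Same-numbered tumors of the 2 groups had correlations of deviations from -0.23 to 0.56 (mean 0.18), and 2 of 8 correlated best with their own number, so the numbers were not taken as pairs. With the replicate block 369 genes were called, 343 higher and 26 lower, 351 of them among the 357, and the interaction gave 3300.

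At this depth, the lowest genes, Cd40lg and Il21 among them, carry a large counting error, and depth was not varied apart from the tumors.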
